A study of Triticum aestivum with 58 samples.

Results

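The libraries described here are the 6 root libraries of spring wheat cultivars in which genes of the first stretch of chromosome 1B were expressed at low levels: replicates 1, 2 and 3 of Pasban-90, replicate 2 of Barani-83, replicate 3 of Chakwal-50 and replicate 2 of NARC-2009. They were compared with the other 75 of 81 root libraries, out of 163 libraries in all. The 81 root libraries carry 28 cultivar names, and the low libraries 4 of them. The seedlings were untreated, and roots were collected 2 weeks after germination. No library carried a transgene or a treatment, so cultivar name and replicate number are the only labels by which the groups differ. The sources do not say whether the replicates of a name came from separate plants of 1 seed lot, and p-values measure the spread between libraries or names only.

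Bread wheat is a hexaploid whose A, B and D subgenomes carry related copies of most genes, called homoeologues. A gene on 1B therefore usually has a copy on 1A and another on 1D. In many bread wheats the short arm of 1B has been replaced by the short arm of rye chromosome 1R. Whether the low libraries carry such a segment was not tested, since the counts were made on wheat genes alone. Short reads from near-identical homoeologues can be counted on the wrong copy, so levels of single homoeologues are uncertain to that extent. In bulk tissue, fewer cells of a type and less RNA per cell cannot be told apart.

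The low libraries were chosen by the expression of genes from TraesCS1B02G000800 to TraesCS1B02G157000, so their levels over this interval are a description and were not tested. The interval holds 1543 genes, of which 395 were expressed, here a median of at least 5 CPM (reads counted on a gene, scaled to the total of its library) over root libraries. For each library, the median over these genes of the log2 ratio to the root median was taken. It was -3.06 in NARC-2009 replicate 2, -2.99, -2.90 and -2.82 in Pasban-90 replicates 2, 3 and 1, -2.97 in Chakwal-50 replicate 3 and -2.77 in Barani-83 replicate 2. The 6 libraries lay close together and apart from all others. The lowest of the others were Barani-83 replicate 3 at -0.83, Parwaz-94 replicate 1 at -0.70 and Barani-83 replicate 1 at -0.36, and the highest was at 0.28. These 3 libraries in between belonged to the other group.

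**Figure D1:**
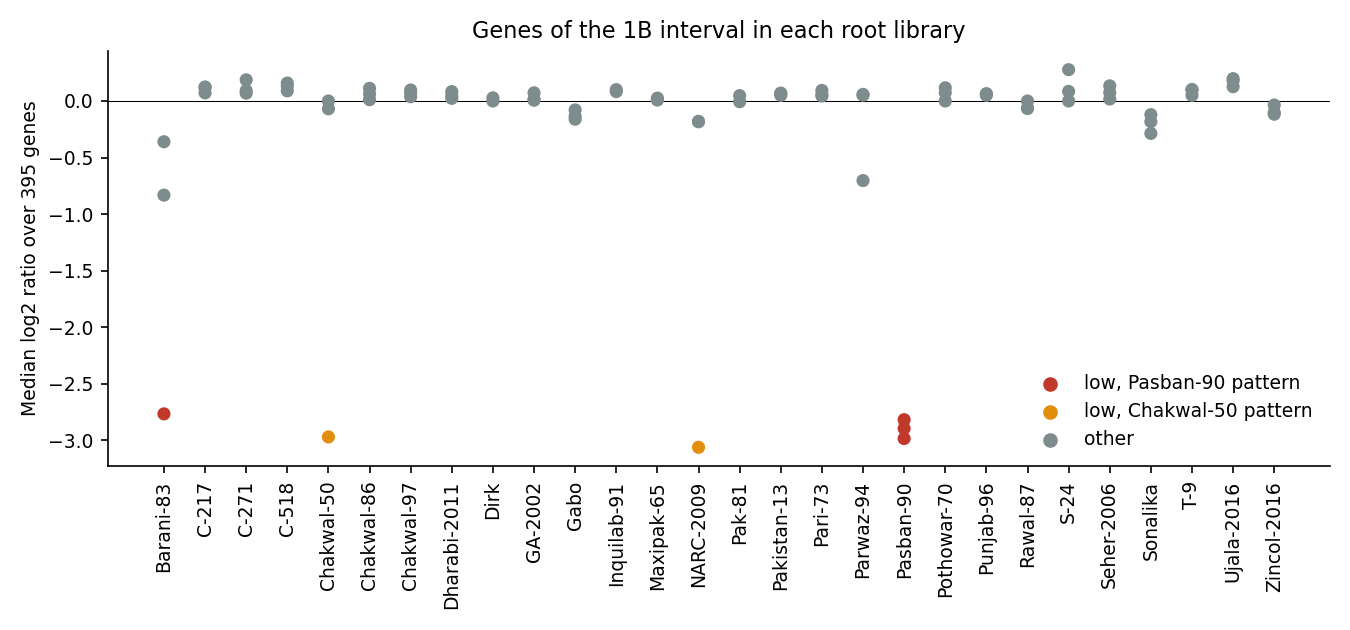
Median log2 ratio to the root median over the 395 expressed genes of the 1B interval (y axis) for each of the 81 root libraries, by cultivar name (x axis). Each point is 1 library; the 6 low libraries sit between -3.06 and -2.77, and the other 75 between -0.83 and 0.28.

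The low state covered almost the whole interval and ended sharply. Of the 395 expressed genes, 357 had a mean log2 ratio under -1 over the low libraries, 38 lay between -1 and 1, and 0 lay above 1. In 282 genes every low library was below every other library, and in 0 genes every low library was above; without the 3 libraries in between the first number was 284. There were 8 expressed genes with no read in any low library. The last run of low genes ended at TraesCS1B02G152200, and the next expressed gene, TraesCS1B02G152300, was at the level of the other libraries. All 22 expressed genes between that point and the end of the interval were within 1 log2 unit of the root median, so the interval named in the selection was slightly longer than the low stretch. Up to that point, 357 of 373 genes were under -1.

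The 2 genes of highest median level in the other libraries show how the loss differed between genes. TraesCS1B02G055200 was counted at 12.1 CPM in Barani-83 replicate 2, 8.68 in Chakwal-50 replicate 3, 11.7 in NARC-2009 replicate 2 and 14.01, 11.2 and 9.74 in Pasban-90 replicates 1, 2 and 3. In the other libraries it ranged from 119.9 to 1018 CPM with a median of 331.6, so some reads remained in each low library. TraesCS1B02G100100 was at 0.532, 1.54 and 0.857 CPM in the first 3 of these and at 0.467, 0.594 and 0 in Pasban-90, against 101.1 to 863 CPM in the others (median 325.7). Neither gene overlapped between the groups, and the second was close to absent. The files used here do not pair either gene with a name.

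The genes of the interval together took 2481 to 2804 CPM in the low libraries and 7687 to 18559 CPM in the others. The low mean was 19.0% of the mean of the others. The counterpart stretches of 1A and 1D, which start at the same end and run a little past the IAA11 homoeologue of each chromosome, took 107.9% and 109.7% of the mean of the others. The rise of the 1A sum was 9.67% of what was lost on 1B, and that of the 1D sum 12.1%. The sums of the counterparts overlapped between the groups. On 1A they were 14648 to 15560.5 CPM in low libraries and 12685 to 16095 in the others. On 1D they were 15492 to 16187 and 13224 to 16573 CPM. The 3 stretches together stood at 79.0% of the mean of the others, with 32945 to 34083 CPM in low libraries and 36489 to 48299 in the rest. That sum holds the 1B interval, which chose the libraries, so its gap is a description.

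Before genes outside the interval were compared, the libraries were compared with each other. For this, 730 genes outside the interval were used that were either off (under 0.15 CPM) or on (over 2 CPM) in nearly every root library. Such genes differ in presence or activity between wheat lines. The 6 low libraries held only 2 patterns. The first was shared by the 3 Pasban-90 libraries and Barani-83 replicate 2, with 99.9% to 100% of genes in the same state. The second was shared by Chakwal-50 replicate 3 and NARC-2009 replicate 2, also at 100%. Between the 2 patterns, 69.8% to 70.2% of genes were in the same state.

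Libraries labelled with 3 of the names therefore went against their labels. Barani-83 replicate 2 matched the other Barani-83 libraries in 84.5% and 85.8% of on/off genes, but matched the 3 Pasban-90 libraries in 99.9% to 100%. Chakwal-50 replicate 3 matched the remaining libraries labelled Chakwal-50 in 69.4% and 69.2%. NARC-2009 replicate 2 matched those labelled NARC-2009 in 69.2% and 69.0%. Such mismatches were not particular to the low libraries. The other libraries, of 27 names, held 37 patterns, and Parwaz-94 replicate 1 matched each remaining Parwaz-94 library in 85.7%. None of these 37 patterns was shared with a low library. Low libraries that share a pattern were not copies of 1 library, since their counts differed by 4.27 to 8.55 times the variance that sampling alone gives. By this measure the 6 low libraries were of 2 kinds, and the main counts outside the interval are also given with the low libraries summed per pattern.

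**Figure D2:**
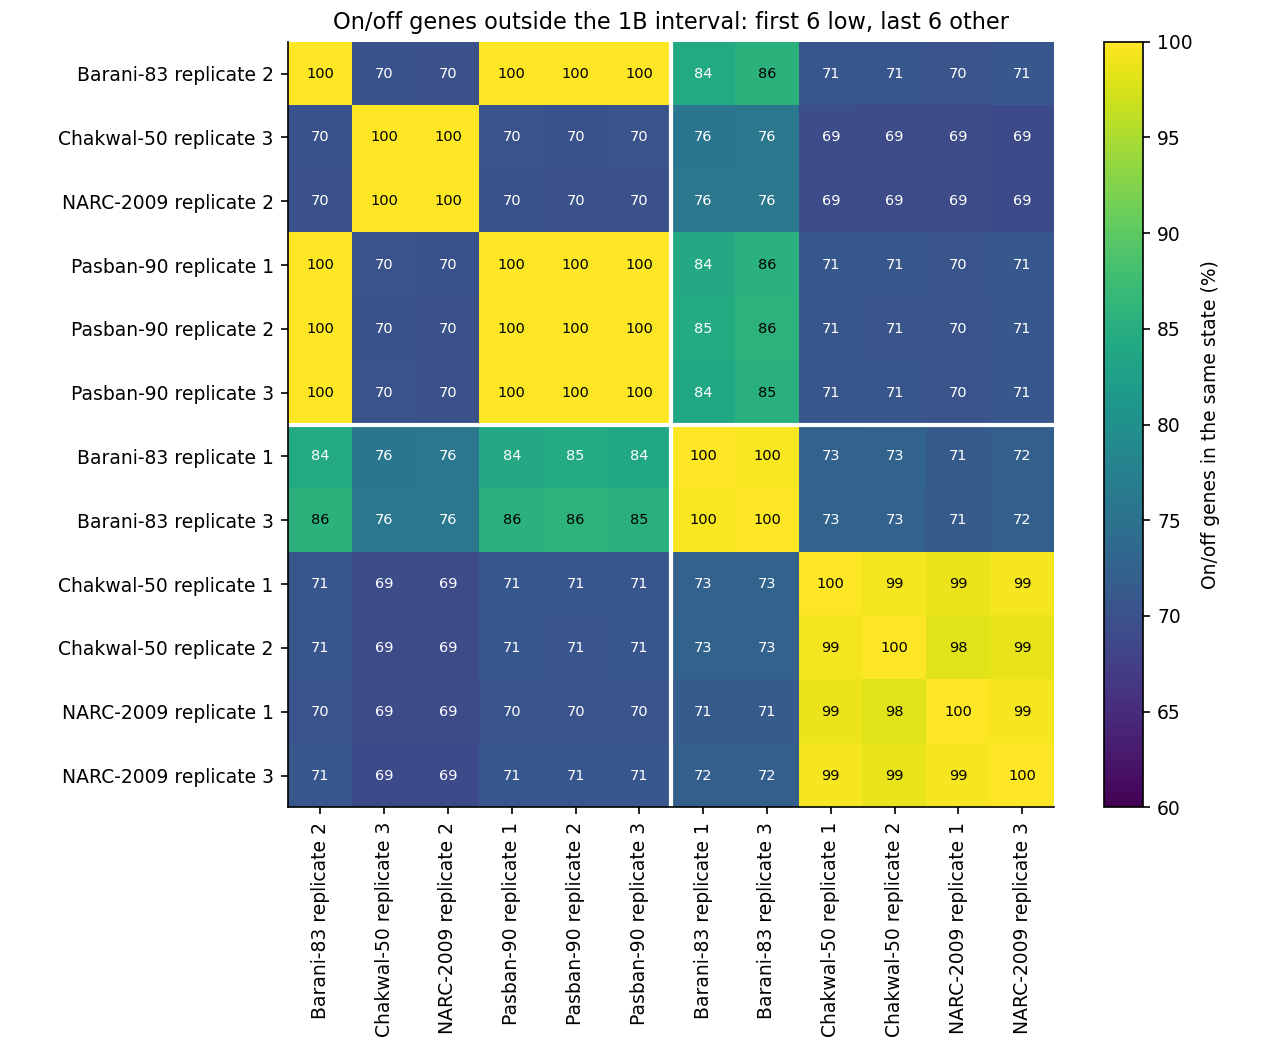
Share of on/off genes outside the 1B interval in the same state (%, colour and number in each cell) between each pair of the 6 low libraries and the 6 other libraries of the same names. Rows and columns are libraries; 4 low libraries share 1 pattern, the other 2 low libraries share a second, and the patterns meet at about 70%.

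No on/off state outside the interval marked the low libraries. Of the 730 genes, 309 were on and 174 were off in all 6, but 0 of these were in the opposite state in all other libraries. Only 2 of the genes that were off in all 6 were on in at least 90% of the others. Sequencing depth was somewhat lower in low libraries, with 8421545 to 9390843 counted reads (median 9020919). The others had 8577036 to 11212584 (median 9890387). The ranges overlapped, but every low library was below the median of the others. Root-type genes of the study (EXPA8, LRA1, TaMOR and RTH3, 12 genes) summed to 106 to 172 TPM (counts divided by gene length and scaled to the library, computed here) in low libraries and 33.5 to 285 in the others. The 3 PpD genes, which are higher in leaf in these data, summed to 0.404 to 1.76 and 0 to 2.16 TPM, and both ranges of the low libraries lay inside those of the others. The root-type sum was mostly RTH3, so it says little about the other root-type families. In the comparison of names tested below, the RTH3 copies had log2 fold changes of 0.27, 0.10 and 0.27. Those of the EXPA8, LRA1 and TaMOR copies were all negative, from -1.39 to -0.51. None of the root-type genes passed edgeR's test there.

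The question whether expression outside the interval differed was then tested on counts summed over the low libraries of each name (4 sums) and over the other libraries of each name (27 sums). With edgeR's quasi-likelihood test and an adjusted p under 0.1, 908 of 66866 genes outside the interval were higher in low libraries (1.36% of those tested) and 909 were lower (1.36%). DESeq2, which scales libraries in another way, called 1197 higher and 1992 lower. With the low libraries summed per pattern, 2 sums against 27, 173 genes were higher (0.251%) and 70 lower (0.102%). Each pattern was also set against the other libraries on its own, as 2 name sums against 27 in 1 model of both patterns. The 2 sums of a pattern counted as separate samples there, although their libraries matched in 99.9% to 100% of on/off genes. Each of these counts therefore rests on 1 kind of library. The Pasban-90 pattern had 374 genes higher (0.559%) and 404 lower (0.604%), and the Chakwal-50 pattern 637 higher (0.953%) and 1122 lower (1.68%). Both patterns share the other libraries as their control. Without NARC-2009 in the low group the 4-name count fell from 1817 to 669, without Chakwal-50 to 1056, without Pasban-90 to 1111 and without Barani-83 to 1200.

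The 1A and 1D counterparts held many of the genes that were higher in low libraries. In the 1A counterpart, 75 of 788 genes tested were higher (9.52%) and 25 lower (3.17%), and in the 1D counterpart 83 of 849 were higher (9.78%) and 12 lower (1.41%). Outside the interval as a whole, 1.36% were higher and 1.36% lower. On chromosomes other than 1A, 1B and 1D, 658 of 58230 were higher (1.13%) and 758 lower (1.30%). The median log2 fold change was 0.07 in the 1A and 0.10 in the 1D counterpart, and -0.04 on the other chromosomes. Each single chromosome of groups 2 to 7 had at most 1.55% of its genes higher.

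The same direction was seen with the low libraries summed per pattern. Then 23 of 818 genes of the 1A counterpart were higher (2.81%) and 6 lower (0.733%). Of 874 genes of the 1D counterpart, 23 were higher (2.63%) and 2 lower (0.229%). Of all genes outside the interval, 0.251% were higher and 0.102% lower, so the lower share was above background as well. For the Pasban-90 pattern alone, 35 and 37 genes of the 1A and 1D counterparts were higher (4.44% and 4.36%, beside 0.559% of all genes outside the interval) and 20 and 1 lower (2.54% and 0.118%, beside 0.604%). For the Chakwal-50 pattern, 39 and 40 were higher (4.95% and 4.71%, beside 0.953%) and 22 and 9 lower (2.79% and 1.06%, beside 1.68%). In the remainder of 1A, 1B and 1D, 26, 30 and 27 genes were higher in the comparison of 4 names (1.28%, 1.41% and 1.29%), near the background of 1.36%. In the same order 14, 30 and 57 genes were lower (0.690%, 1.41% and 2.72%), also beside 1.36%.

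**Figure D3:**
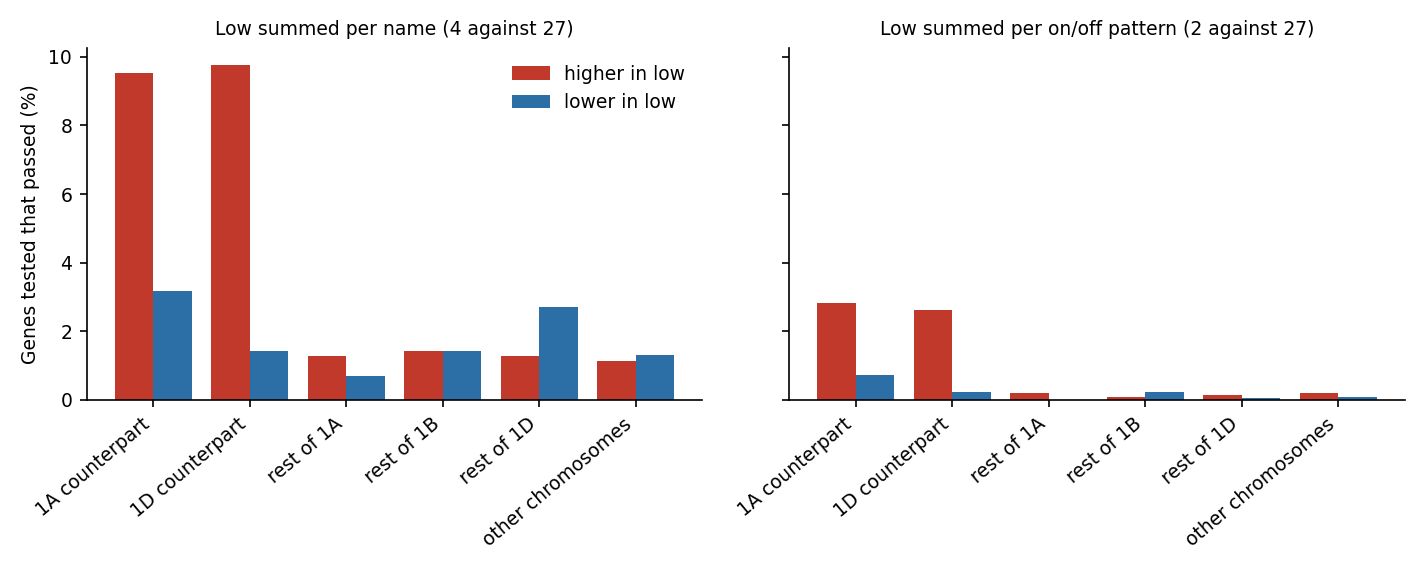
Percentage of genes tested that were higher (red) or lower (blue) in low libraries at an adjusted p under 0.1 (y axis) by stretch of the genome (x axis), with low libraries summed per cultivar name (left) and per on/off pattern (right). In both panels the 1A and 1D counterparts have the highest red bars, at 9.52% and 9.78% on the left and 2.81% and 2.63% on the right.

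A small shift was spread over many genes of both counterparts. For each name, the median log2 ratio to the root median was taken over the 374 expressed genes of the 1A counterpart. It was 0.20 in the low sums of Barani-83 and Pasban-90, 0.11 in Chakwal-50 and 0.01 in NARC-2009, a mean of 0.13 ± 0.09 (SD, n = 4) against 0.00 ± 0.09 (SD, n = 27) in the others. The difference of 0.13 had an exact two-sided permutation p of 0.0100 (adjusted over 3 stretches, 0.0150). Over the 409 expressed genes of the 1D counterpart, the values were 0.20, 0.19, 0.11 and 0.05 in the same order, and the difference of 0.15 had an exact permutation p of 0.00553 (adjusted 0.0150). The 1042 genes of the rest of 1B differed by 0.02 (exact permutation p = 0.675). The low and other names overlapped in all 3 stretches.

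Within each mixed name the low library was also the higher one. The 1A value was 0.20 in the low library of Barani-83 and 0.13 over its others, 0.11 and 0.00 in Chakwal-50, and 0.01 and -0.11 in NARC-2009. For 1D the pairs were 0.20 and 0.13, 0.11 and -0.03, and 0.05 and -0.12. Libraries as a whole shift a little on this scale, and the loss on 1B itself raises the CPM of every other gene. When each value was taken relative to the median over the other chromosomes, the differences were 0.12 for 1A (exact permutation p = 6.36e-05) and 0.13 for 1D (exact permutation p = 3.18e-05, the smallest these samples allow; adjusted p = 9.53e-05 for each), and 0.00 for the rest of 1B (exact permutation p = 0.954). On 1D the low names then lay between 0.09 and 0.16 and the others between -0.05 and 0.07, without overlap. On 1A they lay between 0.05 and 0.16 and the others between -0.05 and 0.07, with overlap. This scale was chosen after the data were seen. Its p-values count the low names as independent, although the low libraries held only 2 on/off patterns. Summed per pattern there are 406 regroupings, too few for p-values as small as those of 1A and 1D. The scaled differences were not tested per pattern. With the low libraries summed per pattern the unscaled differences were 0.15 and 0.16, with an adjusted exact permutation p of 0.0554 for each. With the mean over genes in place of the median they were 0.044 and 0.093, and the adjusted exact permutation p rose to 0.469 for 1A and 0.198 for 1D.

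The shift was not even along the counterparts. In windows of 25 neighbouring expressed genes, the median over low libraries exceeded 0.1 in 10 of 15 windows of the 1A counterpart and 14 of 17 of the 1D counterpart, against 8 of 42 and 3 of 43 windows of the remainder of each chromosome. The third window of 1D was below 0 in all 6 low libraries, at -0.44 to -0.02. The first 2 windows of 1A also went the other way. Their 50 genes, from TraesCS1A02G001800 to TraesCS1A02G024500, had a median of -0.63 in Barani-83 replicate 2 and -0.58, -0.74 and -0.61 in Pasban-90 replicates 1, 2 and 3. Chakwal-50 replicate 3 was at 0.05 and NARC-2009 replicate 2 at 0.00, so the 4 libraries of the first pattern were lower at the start of 1A and the 2 of the second were not. The other libraries ranged from -0.79 to 0.31.

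The far end of 1D was low in all 6 libraries. Over the last 56 expressed genes, from TraesCS1D02G434600 to TraesCS1D02G454700, the median log2 ratio was -2.28 in Barani-83 replicate 2, -2.62 in Chakwal-50 replicate 3, -2.46 in NARC-2009 replicate 2 and -2.40, -2.33 and -2.48 in Pasban-90 replicates 1, 2 and 3. This was not particular to them, since 32 of the other 75 libraries, of 14 names, were also under -1, and the others ranged from -3.01 to 0.71. Of these 56 genes, 25 were called lower and 0 higher in the comparison of 4 names, where 1.36% of all genes outside the interval were lower. Both stretches were picked after the windows were seen and for these low values, so the count is a description.

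**Figure D4:**
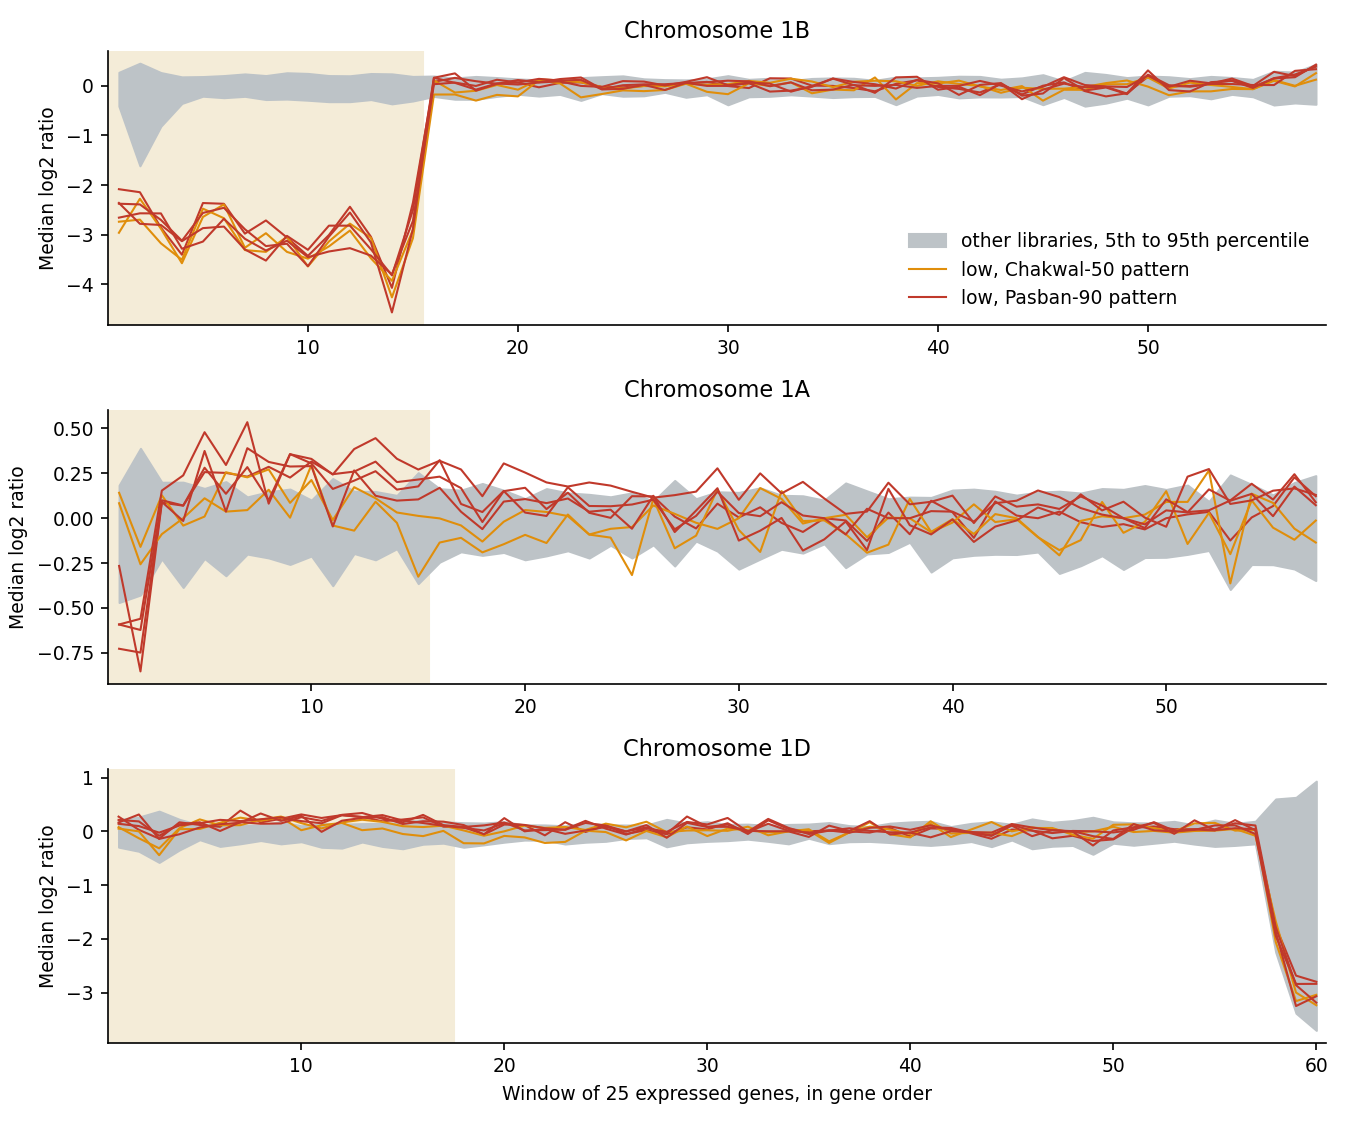
Median log2 ratio to the root median (y axis) in windows of 25 expressed genes in gene order (x axis) along chromosomes 1B, 1A and 1D; lines are the 6 low libraries, the grey band the 5th to 95th percentile of the other libraries, and the shaded stretch the 1B interval or its counterpart. The y scale differs between panels. The lines fall to between -2.08 and -4.57 over the 1B interval and rejoin the band at its end, lie above 0 over most of the counterparts, and fall again at the end of 1D.

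Genes outside the interval whose low and other libraries did not overlap were few. In 17 genes (0.0254% of 66866) all 6 low libraries were above all 75 others, and in 5 genes (0.00748%) all were below. Of the 17 genes, 8 were in the 1A counterpart (1.02% of its genes) and 6 in the 1D counterpart (0.707%). The rest of 1A, the unplaced genes and the other chromosomes held 1 each. Of the 5 genes below, 1 was in the 1A counterpart, 1 in the rest of 1B, 1 unplaced and 2 on other chromosomes. Without the 3 libraries in between, 24 genes were above, 20 of them in the counterparts, and 5 below.

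The gene with the largest fitted rise was TraesCS1D02G126100, in the 1D counterpart. It was counted at 1.49 CPM in Barani-83 replicate 2, 1.43 in Chakwal-50 replicate 3, 1.71 in NARC-2009 replicate 2 and 2.69, 1.19 and 2.35 in Pasban-90 replicates 1, 2 and 3. In the others it ranged from 0 to 0.804 CPM, with no read in 63 of 75 libraries, so the groups did not overlap. Its log2 fold change was 5.19 ± 0.70 (SE), with an edgeR adjusted p of 4.25e-06, and 5.24 ± 0.85 with an adjusted p of 0.000182 over patterns. It did not pass within the 3 mixed names (log2 fold change 3.21, edgeR adjusted p = 0.130). The counts were low, with at most 23 reads in a library and a mean of 0.0475 CPM over the other names, under the floor of 3 counts (0.335 CPM), so the size of the rise is poorly determined. The mean of 1 CPM asked of a named gene was met in the low group alone, so the rank and the lack of overlap are a description.

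TraesCS1A02G058900, in the 1A counterpart, behaved alike. The low libraries held 1.70, 1.32 and 0.749 CPM in Barani-83 replicate 2, Chakwal-50 replicate 3 and NARC-2009 replicate 2 and 1.28, 0.712 and 1.57 in Pasban-90, and the others 0 to 0.603 CPM. Again the groups did not overlap (log2 fold change 4.79 ± 0.61, edgeR adjusted p = 1.08e-06). Its counts were low too, with at most 16 reads in a low library and no read in 57 of the others. The mean over the other names was 0.0417 CPM, so the size of this rise is also poorly determined. This gene was not tested within the mixed names. Among genes of the 1D counterpart, TraesCS1D02G114400 was more strongly expressed. It reached 10.2, 9.12 and 12.8 CPM in the same 3 libraries and 10.4, 11.4 and 12.5 in Pasban-90, against 0 to 7.22 CPM in the others. Every low library was above every other, with a log2 fold change of 4.69 ± 0.81 and an edgeR adjusted p of 0.000273. Over patterns it was 4.69 ± 1.01 (adjusted p = 0.00825), and within the 3 mixed names it did not pass (3.43, edgeR adjusted p = 0.141). TraesCS1D02G114400 averaged 0.449 CPM over the other names. Both it and TraesCS1A02G058900 met the mean of 1 CPM in the low group alone, so their ranks and lack of overlap are a description. None of these genes is paired with a name in the files used here.

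The largest falls were of genes that were off in the low libraries and also in some of the others. TraesCS1A02G022800, in the 1A counterpart, had no read in any low library. The others ranged from 0 to 60.3 CPM with a median of 20.3, and 16 of them had no read, so the groups overlapped. Against a floor of 3 counts per low library, it was at least 65.3-fold lower than the mean of the other names. TraesCS1D02G028400 also had no read in the 6 low libraries and none in 25 of the others, whose highest value was 78.6 CPM. It was at least 62.9-fold lower against the same floor. The edgeR adjusted p-values were 0.0235 and 0.0616, but 0.242 and 0.437 with the low libraries summed per pattern, so neither passed there. Within the 3 mixed names TraesCS1D02G028400 passed (edgeR adjusted p = 0.000273). TraesCS7D02G270100 was the only one of the 10 largest falls to pass over patterns. It had at most 1 read in a low library. The others ranged from 0 to 84.7 CPM (median 32.0), with no read in 1 library. It was at least 98.2-fold lower against the same floor. Its edgeR adjusted p was 4.05e-10 over names, 5.98e-07 over patterns and 0.000207 within the mixed names.

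The 3 mixed names allow a comparison of low and other libraries of 1 label. Within Barani-83, Chakwal-50 and NARC-2009, with the name as a block, 562 of 53035 genes outside the interval were higher (1.06%) and 546 lower (1.03%) by edgeR's test. As given above, low and other libraries of 1 label differed at 14.2% to 31.0% of the on/off genes. The other libraries of Chakwal-50 matched those of NARC-2009 in 98.0% to 99.4%, and the low libraries of these names in 100%, so both names gave a contrast of the same 2 patterns. In the 1A counterpart 22 genes were higher (3.57%) and 17 lower (2.76%), and in the 1D counterpart 14 were higher (2.08%) and 9 lower (1.34%). Both directions were thus above the shares of all genes outside the interval, 1.06% and 1.03%. Unplaced genes (2.61% higher) and chromosome 7B (2.27%) were above the 1D counterpart in this comparison. Of the 44 genes called in the rest of 1D, 41 were lower (2.38% of its genes tested). Among those called lower were 20 of the 56 genes at its far end. The total count moved from 1108 to 6087 without Barani-83, 199 without Chakwal-50 and 417 without NARC-2009, so it rested on which names entered. Without a single other library of Chakwal-50 it was 527 or 513, and without 1 of NARC-2009 it was 724 or 483.

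IAA11, an Aux/IAA gene of the study's root list, has its 1B homoeologue inside the interval and its other homoeologues in the counterparts. Aux/IAA proteins repress auxin response and are degraded when auxin is present. IAA11_1B, whose low level is part of what chose the libraries, was at 5.58, 3.89 and 6.04 TPM in Barani-83 replicate 2, Chakwal-50 replicate 3 and NARC-2009 replicate 2 and at 6.001, 4.63 and 5.16 TPM in Pasban-90 replicates 1, 2 and 3. The others ranged from 9.26 to 42.4 TPM with a median of 22.6, without overlap.

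The copies on 1A and 1D did not pass the test. IAA11_1A was at 16.4, 16.2, 15.4, 17.6, 15.2 and 13.6 TPM in the same order of libraries, within the range of 10.5 to 25.4 TPM in the others. Its log2 fold change was -0.01 ± 0.13 (SE, edgeR adjusted p = 0.974). IAA11_1D was at 24.4, 28.1, 23.3, 34.1, 34.5 and 27.5 TPM, also within the range of the others (12.9 to 41.0 TPM). Its log2 fold change was 0.12 ± 0.12 (edgeR adjusted p = 0.677). The 3 copies together summed to 44.8 to 57.7 TPM in low libraries (median 47.3) and 38.2 to 103.3 in the others (median 62.5).

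**Figure D5:**
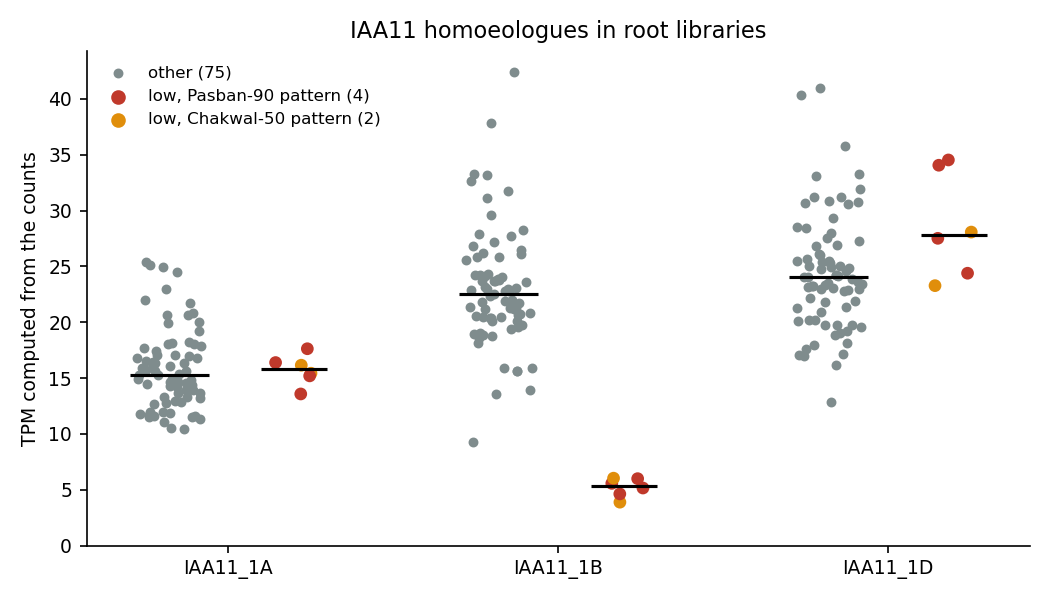
TPM (y axis) of the IAA11 homoeologues on 1A, 1B and 1D (x axis) in each root library; points are libraries (grey, 75 others; coloured, 6 low) and horizontal lines are medians. The low libraries sit below every other library for IAA11_1B, at 3.89 to 6.04 TPM, and inside the range of the others for IAA11_1A and IAA11_1D.

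Of the study's 95 root system architecture genes, 94 lie outside the interval and 82 of these were tested. There were 2 genes lower in low libraries and 0 higher at an adjusted p over all genes, against a background of 1.36% lower, and 9 had an unadjusted p under 0.05. The median log2 fold change of the list was -0.16, and that of all genes tested outside the interval -0.04. With the low libraries summed per pattern none of the list passed edgeR's test.

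IAA23_7A, an Aux/IAA gene, was among the genes that fell. It was at 3.23, 4.02 and 2.86 TPM in Barani-83 replicate 2, Chakwal-50 replicate 3 and NARC-2009 replicate 2 and at 3.32, 3.39 and 3.82 TPM in Pasban-90, against 2.24 to 12.3 TPM in the others (median 5.73). The ranges overlapped, and the log2 fold change was -0.85 ± 0.26 (SE, edgeR adjusted p = 0.0893, over patterns 0.642). Its copies IAA23_7B and IAA23_7D had log2 fold changes of -0.14 and 0.16 and did not pass.

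No gene of the root hair, expansin, or lateral and crown root families passed by edgeR's adjusted p in the comparison of 4 names. The 14 tested root hair genes (RTH1, RTH3, RTH5, RHT5, RHD2 and TaRSL4) had a median log2 fold change of -0.03, with 0 at an unadjusted p under 0.05. The 12 tested expansins, which loosen cell walls during growth, had a median of -0.84 and ranged from -1.69 to 0.10, with 2 at an unadjusted p under 0.05. The 12 tested genes of lateral and crown root formation (LBD16, TaMOR, WOX11 and CRL4) had a median of -0.39, with 1. Among the expansins, the EXPA10 copies were at -0.16, 0.10 and 0.01. The EXPB1 copies were barely expressed, with medians of 0.33 to 0.60 TPM in the other libraries. Within the mixed names TaEXPA2_3A and TaEXPA2_3D were at 1.02 and 0.85 and TaEXPA2_3B at -0.08, and none of these passed. For the Chakwal-50 pattern alone 2 genes of the list, both expansins, were lower by edgeR's test, beside 1.68% of all genes outside the interval. TaEXPA2_3B had a log2 fold change of -3.92 (adjusted p = 0.0723) and EXPA8_3A, of very low level, passed at an adjusted p of 0.0855. In the Pasban-90 pattern TaEXPA2_3B was at -0.53 (edgeR adjusted p = 0.847), and the difference between the patterns was not tested. Within the mixed names 1 gene of the list passed, ARF4_3B, an auxin response factor, at a log2 fold change of -0.48 (edgeR adjusted p = 0.0914), where 1.03% of all genes outside the interval were lower.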

How the data were processed

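Roots of untreated seedlings were sequenced as 50-bp single-end reads. The authors mapped reads to the bread wheat genome with HISAT2 and deposited whole-number counts per gene from featureCounts, without normalization. The genome build is not given in the sources used here. Deposited TPM tables were not used, and TPM was computed from counts and the deposited gene length. A count of 0 allows up to 3 counts, which covers counting error only.

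The libraries, lists and tests were chosen with earlier results of these data known. Counts were summed per name and group, filtered with filterByExpr, scaled by TMM and compared by the quasi-likelihood test of edgeR 4.0.16 in R 4.3.3, with Benjamini-Hochberg adjustment over all genes tested and the study's threshold of 0.1. Each SE of a log2 fold change was derived from that change and the F statistic of edgeR's test. Medians over stretches used log2(CPM + 0.1) and exact permutation over names. Fits were tried on simulated counts whose spread between samples was smaller than in the fit over names. The simulated samples shared no on/off patterns, so the trial does not cover that limit. Named genes were the largest changes in each direction with a mean of at least 1 CPM in the higher group and 1 sign in all 4 low names. At most 2 in each direction and 1 further fall are printed, since no table used here pairs identifiers with names. Counterparts were set by gene order, without homoeologue pairs. Alternatives included DESeq2 1.42.0, other filters, single libraries, a replicate block and each name left out. Summing per pattern, each pattern alone, leaving out the 3 libraries in between and scaling to the other chromosomes were chosen after seeing the data. Results of 1 gene family of the study's list are not reported here.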

Additional observations from a re-analysis of the deposited data

Results flagged for a closer look

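The leaf libraries were outside the comparison. Of 82 leaf libraries, 8 had a median log2 ratio over the interval below that of every root library outside the low group, at -2.997 to -2.49 over 277 expressed genes. None of these carries a name of the low root libraries, whose 12 leaf libraries lay between -0.36 and 0.65.

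TraesCS1D02G029000 was the 1 of 19 measures in which a low library stood far from the other 5. Barani-83 replicate 2 had 1 read (0.0287 TPM) and the other 5 had none. With a single read the gap fills the whole range. Chance alone gives about 1 such case in 20 for continuous values, and this rate does not cover a value set by a single read.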

How the results depend on the processing

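Of 1817 genes called outside the interval, the count was 859 at an adjusted p under 0.05, 3189 with DESeq2, 722 with at least 10 counts in every sample, 4060 with single libraries, 4039 with single libraries and a replicate block, 3801 without the remaining libraries of the mixed names, 243 with low libraries summed per pattern, 778 for the Pasban-90 pattern alone, and 669 to 1200 with each low name left out. The 195 calls in the counterparts (158 higher) became 120, 309, 303, 54 and 93 with at least 10 counts, single libraries, the replicate block, summed patterns and the Pasban-90 pattern, 110 for the Chakwal-50 pattern, and 107 to 135 with each low name left out. More of them were higher than lower in every one of these settings. The 2 calls in the study's list became 1 at the stricter threshold or with at least 10 counts, 4 with the replicate block or without the remaining libraries of the mixed names, 0 with summed patterns or the Pasban-90 pattern, and 0 to 1 with each low name left out.

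Within the mixed names, 1108 calls became 599 at the stricter threshold, 2384 with DESeq2, 487 with at least 10 counts, 227 with no cultivar block, 52 with a replicate block in its place, and 199 to 6087 with a name or a library left out. The replicate numbers stand in column names alone and pair no samples by label. With the mean over genes, the shift was 0.044 on 1A and 0.093 on 1D and neither passed. IAA11_1A, which was not called in any setting, changed sign to 0.027 for the Chakwal-50 pattern and ranged from -0.041 to 0.013 with each low name left out. The causes of these changes were not tested.

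Low libraries of 2 patterns limit every comparison, and cultivar, seed source and the 1B state cannot be told apart. The depth leaves genes under 0.335 CPM in low libraries, a floor of 3 counts, poorly measured.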
